A study of Mus musculus with 8 samples.

Results

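The genes described here are 10 members of the p53 pathway and of the Ink4 locus, chosen by name out of the 22609 gene symbols counted in the series. They are Trp53 and its regulator Mdm2, the arrest genes Cdkn1a and Ccng1, the other p53 targets Zmat3, Trp53inp1, Phlda3 and Bbc3, and the Ink4 genes Cdkn2a and Cdkn2b. All 10 passed the filter on low counts in every test. Total RNA was sequenced from immortalized mouse dental papilla cells, the mesenchyme of the tooth germ that gives rise to odontoblasts and dental pulp. The iBmp2 fx/fx line (fx/fx cells) carries floxed alleles of Bmp2 on both chromosomes, and the iBmp2 ko/ko line (ko/ko cells) is the Bmp2 knockout. Each genotype was represented by 1 line and by 1 library at each culture time of 6, 24, 48 and 72 h, which gave 4 libraries per genotype. No treatment apart from the culture time is given, and both groups share the immortalization, whose method is not given in the sources used here.

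The p53 protein is a transcription factor that is stabilized by DNA damage and other stresses and then induces genes of cell cycle arrest, apoptosis and repair. One of its targets, Mdm2, encodes the ubiquitin ligase that degrades p53, which closes a feedback loop. Cdkn2a encodes in alternative reading frames the CDK4 and CDK6 inhibitor p16Ink4a and the Mdm2 inhibitor p19Arf, and Cdkn2b encodes the related inhibitor p15Ink4b. Rodent cells that divide without limit in culture have often lost Trp53 or the Cdkn2a locus.

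The reads assigned to genes ranged from 25890110 to 32415665 per library. Levels are given as CPM, the counts scaled to the library's reads on genes with edgeR's TMM factors, and 3 reads, the smallest number taken as detectable, amounted to 0.0925 to 0.116 CPM before these factors. Bmp2 had 1 read in the 24 h library of the fx/fx cells and 0 in the other 7 libraries, so the genotype could not be checked by its transcript. Of 10 markers of dental mesenchyme, 9 were above 3 counts, with a summed level of 6702 to 8468 CPM in the fx/fx and 7886 to 12779 CPM in the ko/ko libraries, and Lhx8 was not. Among the odontoblast markers, Dspp was at or under 3 counts everywhere. The sums of the markers of epithelium, endothelium and blood reached at most 1.82, 3.63 and 12.5 CPM. Those of nerve and glia were the highest of the non-dental lists, at 20.9 to 43.1 CPM in the fx/fx and 20.5 to 61.6 CPM in the ko/ko libraries, with the glial marker Sox10 at or under 3 counts everywhere. The marker ranges cover all 8 libraries, including that of 24 h labelled ko/ko.

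The 24 h library labelled ko/ko stood apart from its group. Its root mean square difference from the 6 h library of the fx/fx cells was 0.150 on the log2 CPM scale over all genes tested, whereas every other pair of libraries differed by 0.321 to 0.989. The counts of these libraries were not identical, with a mean chi-square per gene of 5.24 and a median of 1.105, against means of 42.4 and medians of 6.04 or more in every other pair. Of the 291 genes called between the genotypes without this library, it was nearer to the ko/ko than to the fx/fx mean in 4. The fx/fx library of 24 h was so in 20. Of the 10 members the library labelled ko/ko was nearer to the ko/ko mean in 6, namely Cdkn1a, Mdm2, Ccng1, Cdkn2b, Zmat3 and Phlda3, and the fx/fx library of 24 h in 2. For these 6 genes its level was 0.920 (Phlda3) to 1.05 (Ccng1) times that of the fx/fx library of 6 h in the library labelled ko/ko. The genotypes overlapped in every member, so the count over members does not bear on the label. Whether the label of this 24 h library is correct was not tested, and each value that uses the library takes the label as given. The genotype comparison therefore rests on the 6 libraries of 6, 48 and 72 h, the times in the study's methods, and the values at 24 h are given apart.

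**Figure D1:**
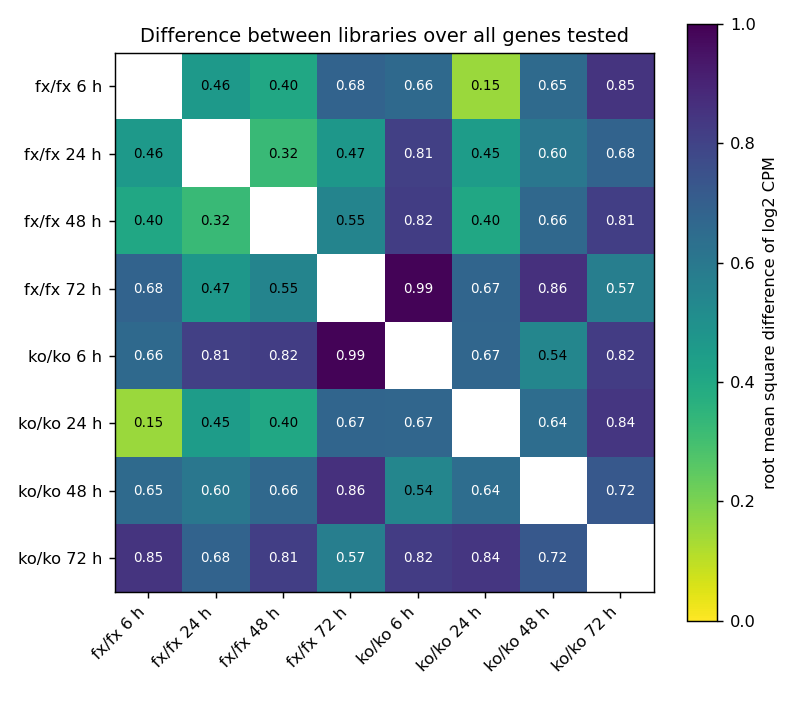
Root mean square difference of log2 CPM over all genes tested for each pair of the 8 libraries, with the colour scale from 0 to 1. The 24 h library labelled ko/ko lies at 0.15 from the 6 h library of the fx/fx cells and at 0.40 or more from each of the others.

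The members lie on 7 chromosomes of the mouse genome build mm9. Trp53 is at chr11:69393861-69405375 on the plus strand and Mdm2 at chr10:117125944-117147814 on the minus strand. Cdkn1a is at chr17:29227924-29237667 (plus) and Ccng1 at chr11:40562054-40568813 (minus). Zmat3 is at chr3:32233718-32264600 (minus), Trp53inp1 at chr4:11083578-11101526 (plus), Phlda3 at chr1:137662696-137665713 (plus) and Bbc3 at chr7:16894965-16903554 (plus). The Ink4 genes are neighbours on the minus strand of chromosome 4, Cdkn2a at chr4:88920377-88940557 and Cdkn2b at chr4:88952198-88956941, with 11640 bases between them. No member shares exonic bases with another annotated gene.

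Because p53 acts through a bipartite DNA element, the 3 kb on each side of each gene start were searched for the p53 response element consensus, 2 adjacent copies of its decamer with both cores of 4 letters intact and at most 1 other mismatch. The consensus is its own reverse complement, so both strands were covered. A match was found for 4 of the 10 members, and 150 of 20238 such windows of the genome held one (0.741%). The limit of 1 mismatch was chosen after the matches were seen. The matches are printed from 5′ to 3′ on the strand of the gene, and capitals mark the cores. They are shown because they place the sequence that p53 recognizes at genes whose levels follow.
Cdkn1a: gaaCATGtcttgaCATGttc
Ccng1: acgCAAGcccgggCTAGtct
Zmat3: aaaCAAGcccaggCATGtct
Cdkn2b: agaCATGtccggtCTTGctc

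The Cdkn1a match (chr17:29227873-29227892) begins 51 bases upstream of the annotated start of the gene and has 1 mismatch. That of Ccng1 (chr11:40568438-40568457, 1 mismatch) begins 356 bases downstream of the start, in an intron. The Zmat3 match (chr3:32263253-32263272) begins 1328 bases downstream in an intron and has 0 mismatches, as do 20 of all windows (0.0988%). The Cdkn2b match (chr4:88954309-88954328, 1 mismatch) is intronic as well, 2613 bases downstream. A match describes the sequence only and is not evidence of binding, and for the other 6 members no such letters were found in this window.

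Per exonic length, the Ink4 gene Cdkn2a had the highest level of the members. Its RPKM was 335 ± 83.0 (SD, n = 4) in the fx/fx and 401 ± 150 (n = 3, without 24 h) in the ko/ko cells, and 99.5% of the genes tested had a lower mean RPKM. Cdkn1a was second, with 161 ± 46.7 and 89.9 ± 43.5 RPKM. Phlda3 had 86.8 ± 20.7 and 68.9 ± 38.6 RPKM. All 8 values of Cdkn2a, from 239 to 554 RPKM, lay above the highest value of Cdkn1a (217), whereas Cdkn1a and Phlda3, the next in order, overlapped across the libraries. The transcripts of p16Ink4a and p19Arf are counted under the 1 symbol Cdkn2a and were not told apart.

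Ccng1 had 64.3 ± 21.4 RPKM and Cdkn2b 61.2 ± 17.8 RPKM in the fx/fx cells, followed by Trp53inp1 (43.3 ± 20.5), Trp53 (43.1 ± 2.73) and Mdm2 (37.4 ± 12.03), and each of these overlapped its neighbours in the order. Zmat3 had 13.3 ± 4.76 RPKM and the apoptosis gene Bbc3 had 6.12 ± 2.04. Within each genotype all libraries of Zmat3 lay below all libraries of Mdm2, while Zmat3 and Bbc3 overlapped. None of the 10 genes was near the limit of detection, and the smallest count of any member was 227 reads, for Bbc3 in the 24 h library labelled ko/ko.

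**Figure D2:**
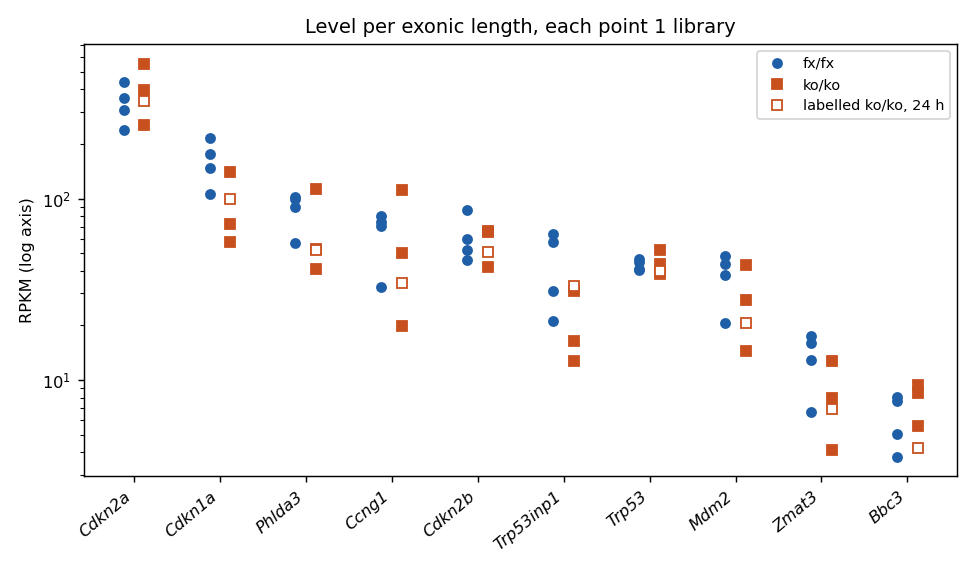
RPKM of each member in each of the 8 libraries on a log axis, ordered by the mean of the fx/fx libraries, with the 24 h library labelled ko/ko as an open square. Cdkn2a lies above every other member, and Zmat3 and Bbc3 lie lowest.

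Trp53 itself varied least among the members. Its level was 166, 180, 164 and 187 CPM at 6, 24, 48 and 72 h in the fx/fx cells. The ko/ko libraries of 6, 48 and 72 h had 176, 155 and 211 CPM. The genotypes overlapped, and the fx/fx level was 0.942, 1.06 and 0.887 times the ko/ko level at these times. Over the 6 libraries the log2 fold change of ko/ko against fx/fx was 0.06 (SE 0.18, adjusted p = 0.923, edgeR's quasi-likelihood test). Of the 50-base windows of its exons, 4.80% occurred elsewhere in the genome, the highest share among the members, so a small part of its reads may have been set aside as not unique.

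Mdm2, the ubiquitin ligase that degrades p53, had 104, 220, 243 and 191 CPM in the fx/fx cells at the 4 times. The ko/ko libraries of 6, 48 and 72 h had 72.9, 139 and 219 CPM. The lowest library of each genotype was that of 6 h, and the highest was that of 48 h in the fx/fx cells and that of 72 h in the ko/ko cells. The fx/fx level was 1.43 times the ko/ko level at 6 h, 1.75 times at 48 h and 0.874 times at 72 h.

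Cdkn1a encodes p21, the CDK inhibitor through which p53 halts the cell cycle. It had 235, 389, 482 and 328 CPM in the fx/fx cells at the 4 times, against 128, 162 and 310 CPM in the ko/ko cells at 6, 48 and 72 h. The ko/ko library was the lower at each of these times, by 1.84-fold at 6 h, 2.98-fold at 48 h and 1.06-fold at 72 h, and the groups overlapped because the ko/ko library of 72 h was above the fx/fx library of 6 h.

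Ccng1, which encodes cyclin G1, a p53 target that acts on Mdm2 through protein phosphatase 2A, had 115, 281, 248 and 260 CPM in the fx/fx cells. Its level in the ko/ko libraries of 6, 48 and 72 h was 69.9, 175 and 390 CPM. The ko/ko libraries thus held both the lowest and the highest value of the 8. The level at 72 h was 5.57 times that at 6 h in the ko/ko cells and 2.26 times in the fx/fx cells.

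Zmat3 encodes an RNA-binding zinc finger protein. It had 54.1, 141, 129 and 105 CPM in the fx/fx cells, against 33.4, 64.03 and 103 CPM in the ko/ko cells at 6, 48 and 72 h. As for Cdkn1a, the fx/fx level was above the ko/ko level at 6 h (1.62-fold) and at 48 h (2.02-fold), and the pair of 72 h was level to within 1.01-fold.

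Trp53inp1, a stress-induced cofactor of p53 that also takes part in autophagy, had 199.5, 373, 411 and 137 CPM in the fx/fx cells. Its ko/ko libraries had 82.3, 200.5 and 106 CPM at 6, 48 and 72 h. Of all members it had the largest ratio of fx/fx to ko/ko cells both at 6 h (2.42-fold) and at 72 h (1.29-fold). In both genotypes its level was higher at 48 h than at 6 or 72 h.

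Phlda3, which encodes an inhibitor of Akt that binds membrane lipids, had 88.5, 139, 159 and 155 CPM in the fx/fx cells and, at 6, 48 and 72 h, 64.1, 82.1 and 176 CPM in the ko/ko cells. Its ko/ko libraries of 6 and 48 h lay below all 4 fx/fx libraries, and that of 72 h lay above them. Bbc3, which encodes the proapoptotic protein Puma, had 10.1, 15.3, 16.1 and 7.59 CPM in the fx/fx cells, against 16.9, 18.9 and 11.2 CPM in the ko/ko libraries. Bbc3 was the only member whose ko/ko library was the higher at 6, 48 and 72 h, and its fx/fx level was 0.599, 0.850 and 0.678 of the ko/ko level.

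Of the Ink4 genes, Cdkn2a had 418, 359.98, 511 and 280.2 CPM in the fx/fx cells. Its level was 648, 463 and 297 CPM in the ko/ko cells at 6, 48 and 72 h. The highest of the 8 values was that of the ko/ko library of 6 h, and in both genotypes the library of 72 h was the lowest. Cdkn2b had 72.8, 83.6, 120.4 and 63.9 CPM in the fx/fx cells, against 92.3, 91.3 and 58.7 CPM in the ko/ko libraries. The 72 h library was the lowest of its genotype for Cdkn2b as well.

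**Figure D3:**
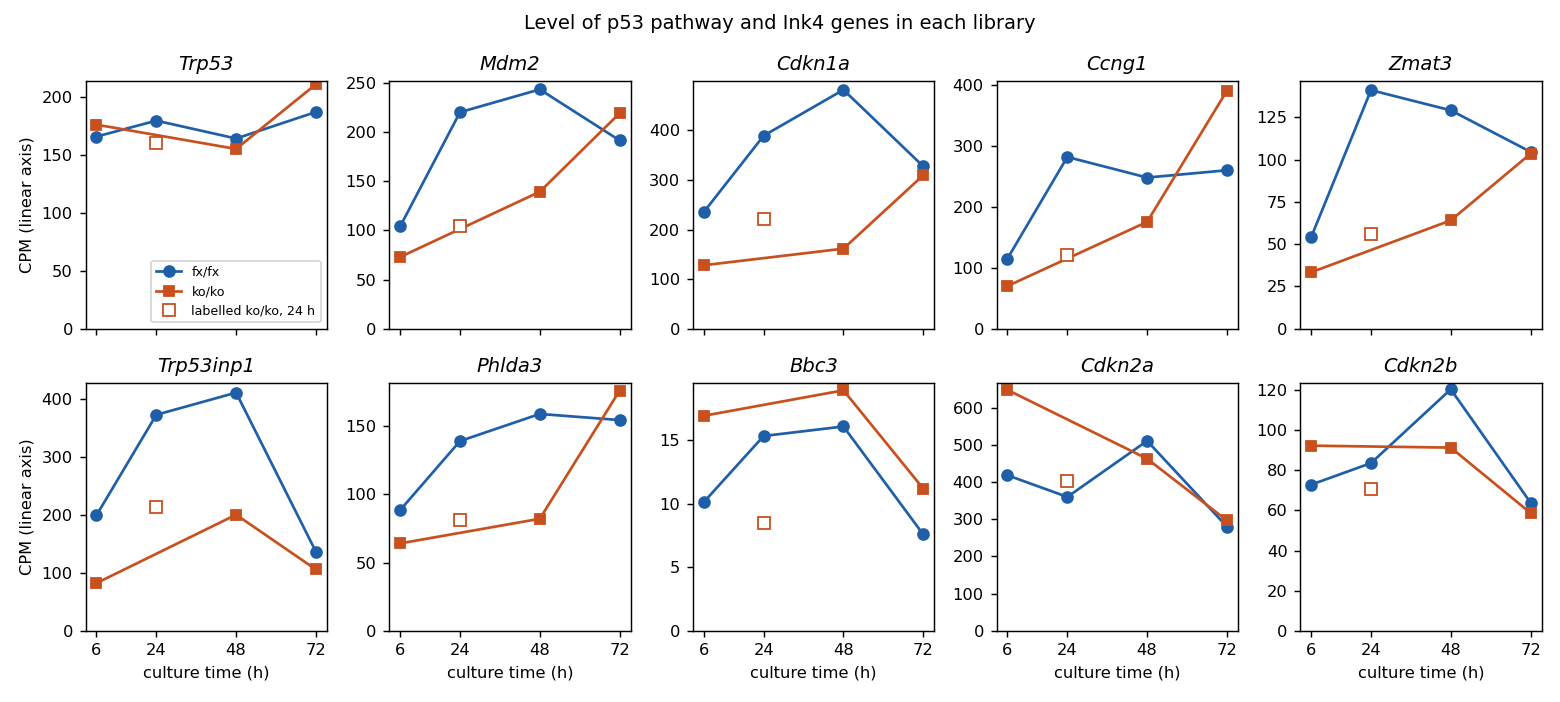
CPM of each member in each library against culture time in h, with lines joining the libraries of a genotype and an open square for the 24 h library labelled ko/ko. Mdm2, Cdkn1a, Ccng1, Zmat3 and Phlda3 are lowest at 6 h in both genotypes, and Cdkn2a and Cdkn2b are lowest at 72 h.

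The comparison of the genotypes asks whether the members' levels differ between the fx/fx and the ko/ko cells across culture times. Each genotype is 1 line, so Bmp2 status and any other difference between the lines cannot be told apart. Without a term for culture time, none of the 10 members was called at an adjusted p of at most 0.05 in edgeR's quasi-likelihood test over the 6 libraries, where 2.22% of the 13121 genes tested were called. None was past the limit used in the study, more than 1 log2 unit in either direction and p under 0.05, taken here without adjustment (7.35% of genes), and 0 reached the latter p alone (14% of genes). DESeq2 (6.65% of genes) and limma (2.36% of genes) called 0 members as well. The largest estimates were those of Trp53inp1 (log2 fold change -0.94, SE 0.48, adjusted p = 0.450) and Cdkn1a (-0.82, SE 0.38, adjusted p = 0.408). Leaving out 1 library moved Trp53inp1 from -0.39 (without the fx/fx library of 48 h) to -1.41 (without the ko/ko library of 48 h), Cdkn1a from -0.53 (without the fx/fx library of 48 h) to -1.27 (without the ko/ko library of 72 h) and Zmat3 from -0.22 (without the ko/ko library of 6 h) to -0.98 (without the ko/ko library of 72 h), with no call at the adjusted limit in edgeR's test. Past the study's limit were then Trp53inp1, without the ko/ko library of 48 h or the fx/fx library of 72 h, and Cdkn1a, without the ko/ko library of 72 h or the fx/fx library of 6 h. In these fits 4.06 to 4.92% of genes were lower and past that limit. The median log2 fold change of the 10 members was -0.21, against 0.03 over all genes tested. No member had groups that did not overlap, which 10.1% of genes had with the ko/ko libraries lower and 9.92% with them higher. The libraries of a group are different culture times, and whether they came from separate cultures is not otherwise given, so the p-values measure only the spread between these libraries.

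At 6, 48 and 72 h, libraries of equal culture time departed from the average of their own genotype in a similar way across genes. When culture time was added as a block, 3 of the 10 members were lower in the ko/ko cells at the adjusted limit, where 11.4% of genes were called lower and 22.7% in either direction. They were Trp53inp1 (log2 fold change -0.90, SE 0.16, adjusted p = 0.00777), Cdkn1a (-0.85, SE 0.24, adjusted p = 0.0378) and Zmat3 (-0.58, SE 0.17, adjusted p = 0.0456). Bbc3 was estimated higher, at 0.51 (SE 0.16), with an adjusted p of 0.0554. These 4 members had an unadjusted p under 0.05 (37.8% of genes in either direction). The remaining 6 members had estimates from -0.41 (Phlda3) to 0.18 (Cdkn2a) and adjusted p of 0.145 or more. In bulk RNA, less transcript per cell and fewer cells that make it cannot be told apart.

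**Figure D4:**
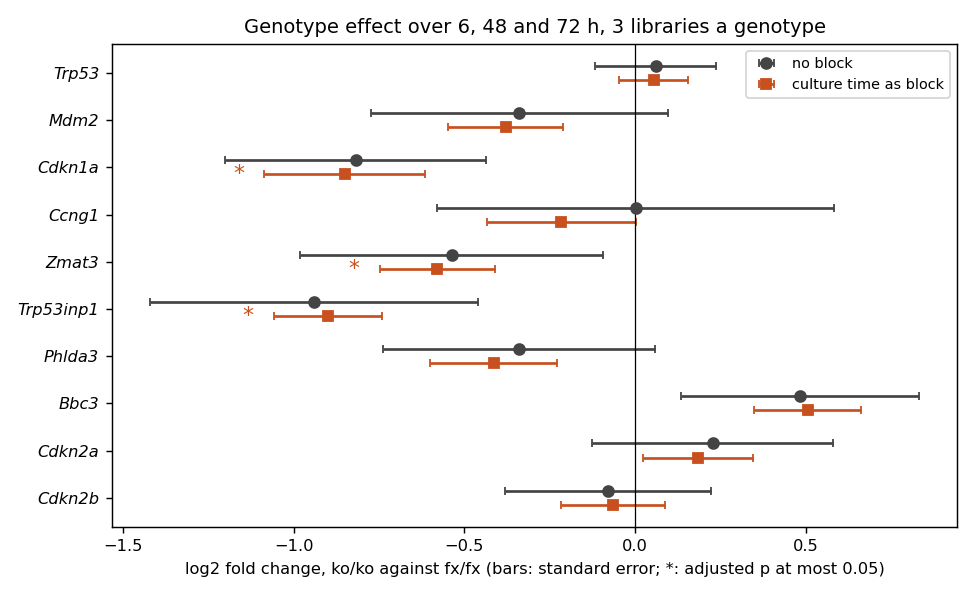
Log2 fold change of the ko/ko against the fx/fx cells over 6, 48 and 72 h for each member, without a block (circles) and with culture time as a block (squares), with bars for the standard error. The asterisks mark Cdkn1a, Zmat3 and Trp53inp1, the members with an adjusted p of at most 0.05 with the block.

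At single culture times the count of lower members differed. At 6 h, 6 of the 10 members were lower in the ko/ko library (50.6% of genes), namely Cdkn1a, Mdm2, Ccng1, Zmat3, Trp53inp1 and Phlda3. At 48 h 9 members were lower (49.7% of genes), all but Bbc3, and at 72 h 4 were (42.7% of genes), namely Cdkn1a, Cdkn2b, Zmat3 and Trp53inp1. Cdkn1a, Zmat3 and Trp53inp1 were lower at all of 6, 48 and 72 h, as were 26.7% of genes. These signs were the same with TMM, RLE and upper quartile scaling. With 1 library per genotype and time, the single times have no replicate check.

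In a fit chosen after seeing the data, the block was repeated without both 72 h libraries, and 6 members were then lower in the ko/ko cells at the adjusted limit (6.56% of genes lower). These were Cdkn1a (log2 fold change -1.23), Trp53inp1 (-1.16), Zmat3 (-0.86), Phlda3 (-0.71), Mdm2 (-0.66) and Ccng1 (-0.61). The time left out was the one at which the fewest members were lower in the ko/ko library. Fits without a time rest on fewer libraries, so the spread between libraries is less well estimated in them. Without both libraries of 6 h, or of 48 h, 1 member, Trp53inp1, was called lower (7.39% and 11.5% of genes), while Cdkn1a had log2 fold changes of -0.85 and -0.50 (adjusted p = 0.101 and 0.0794) and Zmat3 of -0.53 and -0.37 (adjusted p = 0.136 and 0.150). At an unadjusted p under 0.05 there were 3 members without 6 h (29.2% of genes), 3 without 48 h (35.2% of genes) and 6, all lower, without 72 h (14.4% of genes lower), where Cdkn1a and Trp53inp1 were past the limit of the study (6.01% of genes lower). Over all 4 times the pair of 24 h did not share its departures (correlation -0.281), so the block over 8 libraries does not rest on paired libraries at that time. Over all 8 libraries with the block, 0 members were called by edgeR at the adjusted limit (0.337% of genes), and 5 had an unadjusted p under 0.05, all lower (11.7% of genes lower). Without a block, edgeR called 0 members at the adjusted limit over 8 libraries (0% of genes) and over the 7 without the 24 h library labelled ko/ko (3.66% of genes), where Cdkn1a had an unadjusted p under 0.05 over the 8 (4.08% of genes lower) and over the 7 both Cdkn1a and Trp53inp1 had one (9.71% of genes lower), with Trp53inp1 past the limit of the study, at -1.12 (4.32% of genes lower).

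**Figure D5:**
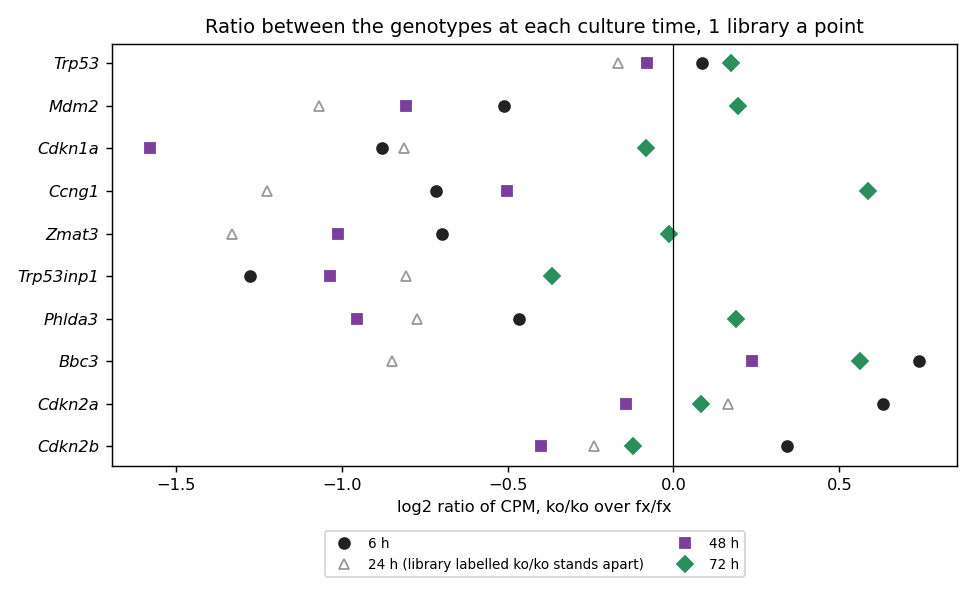
Log2 ratio of CPM, ko/ko library over fx/fx library, at each culture time for each member, 1 library per genotype and point, with open triangles for 24 h. Cdkn1a, Zmat3 and Trp53inp1 are below 0 at 6, 48 and 72 h, and Ccng1 is below 0 at 6 and 48 h and above it at 72 h.

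The 24 h libraries were compared apart. The library labelled ko/ko had 222 CPM of Cdkn1a, 105 of Mdm2, 120.4 of Ccng1, 56.1 of Zmat3 and 213 of Trp53inp1, and for each member its level was 0.841 (Bbc3) to 1.07 (Trp53inp1) times that of the fx/fx library of 6 h. Against the fx/fx library of 24 h, 9 of the 10 members were lower in it (47.4% of genes), and 7 were lower by at least 1.5-fold (9.21% of genes), with the largest ratios for Zmat3 (2.52-fold), Ccng1 (2.34-fold) and Mdm2 (2.10-fold). Because that library lies so close to the 6 h library of the fx/fx cells, its ratios at 24 h were not used in the genotype comparison.

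Across culture time, Mdm2, Cdkn1a, Ccng1, Zmat3 and Phlda3 were lowest at 6 h in both genotypes. Without the 24 h library labelled ko/ko, the trend per doubling of culture time, with genotype in the model, gave 0 members and 0 of 13208 genes (0%) at the adjusted limit in edgeR's quasi-likelihood test. At an unadjusted p under 0.05, 5 members were higher with time (14.7% of genes). They were Ccng1 (0.48 log2 units per doubling, adjusted p = 0.110), Zmat3 (0.36, adjusted p = 0.118), Mdm2 (0.35, adjusted p = 0.110), Phlda3 (0.29, adjusted p = 0.119) and Cdkn1a (0.25, adjusted p = 0.142). DESeq2 called the same 5 members higher at the adjusted limit (7.55% of genes higher), and edgeR without the ko/ko library of 48 h called 4 of them (4.64% of genes higher), all but Cdkn1a. Without the ko/ko library of 6 h, 1 member, Mdm2, had an unadjusted p under 0.05 (3.39% of genes higher).

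Trp53 had an estimate of 0.03 per doubling (SE 0.05), Trp53inp1 of 0.15 (SE 0.16) and Bbc3 of -0.04 (SE 0.11). The Ink4 genes had estimates of -0.16 (Cdkn2a, SE 0.09, adjusted p = 0.271) and -0.03 (Cdkn2b, SE 0.09). From 6 to 72 h the level of Mdm2 was 1.84 times as high in the fx/fx and 3.003 times in the ko/ko cells, that of Zmat3 1.93 and 3.10 times, that of Phlda3 1.75 and 2.75 times, and that of Cdkn1a 1.39 and 2.42 times. The level of Cdkn2a at 72 h was 0.670 and 0.458 times that at 6 h. The ratio was thus further from 1 in the ko/ko cells for each of these genes, whereas that of Trp53inp1 was 0.685 in the fx/fx and 1.29 in the ko/ko cells, opposite in direction and nearer to 1 in the ko/ko cells. The interaction of genotype and time tests this difference, and it gave 0 members at the adjusted limit in edgeR's quasi-likelihood test (0% of genes) and 0 at an unadjusted p under 0.05 (1.01% of genes). The largest interaction estimate was that of Ccng1, at 0.28 per doubling (SE 0.19, adjusted p = 1).

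Of 38 other p53 target genes tested, 2 were lower and 0 higher in the ko/ko cells at the adjusted limit (1.3% and 0.915% of genes), 4 were lower and 6 higher with the block (11.4% and 11.3% of genes), and their median log2 fold change was 0.07. The stress cytokine gene Gdf15 had 66.3, 96.2 and 59.3 CPM in the fx/fx and 23.7, 24.1 and 25.04 CPM in the ko/ko cells at 6, 48 and 72 h (log2 fold change -1.61, SE 0.22, adjusted p = 0.0171). Trp53i11, a p53-induced gene, had 19.01, 17.6 and 11.4 CPM against 1.87, 1.98 and 1.03 CPM (-3.28, SE 0.38, adjusted p = 0.0116). In both genes the groups did not overlap, and in the 24 h library labelled ko/ko Gdf15 stood at 65.6 and Trp53i11 at 16.5 CPM, within the range of the fx/fx libraries. With that library in the test, neither was called (adjusted p = 0.483 and 0.520 over 8 libraries). Leaving out 1 library ended the call of Gdf15 for the fx/fx libraries of 6 and 48 h and the ko/ko libraries of 6 and 48 h (adjusted p = 0.0531, 0.0746, 0.0699 and 0.1004) and that of Trp53i11 for both libraries of 48 h (adjusted p = 0.0727 without the fx/fx and 0.0752 without the ko/ko library).

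Past the study's limit and not the adjusted one, 2 further targets were higher in the ko/ko cells. The gene 9630033F20Rik, the mouse homologue of the glycolysis regulator TIGAR, had 10.5 ± 0.14 CPM (SD, n = 3) in the fx/fx and 23.3 ± 6.55 CPM in the ko/ko cells (log2 fold change 1.14, adjusted p = 0.0648, and 1.11 with an adjusted p of 0.00381 with the block). Rprm, which encodes the arrest protein reprimo, was low, at 0.58 ± 0.43 and 3.02 ± 1.73 CPM (2.34, adjusted p = 0.222, and 2.43 with an adjusted p of 0.00655 with the block). It had 3, 25 and 27 reads in the fx/fx and 54, 71 and 121 reads in the ko/ko libraries of 6, 48 and 72 h. The fx/fx libraries alone would not have passed it through the filter on low counts, so it was tested through the group where it is higher. With 10 counts required in all libraries, Rprm was not tested. Both 9630033F20Rik and Rprm were thus called with the block over 6 libraries. In the 24 h library labelled ko/ko they stood at 7.84 and 0.0375 CPM, below the fx/fx library of 24 h (10.1 and 1.17 CPM). With that library in edgeR's test neither was called. Their adjusted p was 0.483 and 0.562 over 8 libraries without a block, and 0.185 and 0.451 with it. The apoptosis gene Bax and the epoxide hydrolase gene Ephx1, the targets with the highest RPKM, had log2 fold changes of 0.07 and 0.28 and adjusted p of 0.910 and 0.810, and the value of Ephx1 was 0.033 without the fx/fx library of 72 h and 0.60 without that of 48 h.

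Of 19 regulators and relatives of p53 that were tested, 0 were called at the adjusted limit (2.22% of genes) and 2 were lower and 2 higher with the block (11.4% and 11.3% of genes). Ep300, the acetyltransferase p300, was among the lower ones, at 348 ± 32.3 CPM in the fx/fx and 233 ± 82.3 CPM in the ko/ko cells (block log2 fold change -0.65, adjusted p = 0.0300). The p53 relative Trp63 had 0, 4 and 4 reads in the fx/fx and 29, 17 and 11 reads in the ko/ko libraries of 6, 48 and 72 h, so it passed the filter on low counts only through the ko/ko libraries. It was past the study's limit (log2 fold change 2.90, adjusted p = 0.151) and is 1 of those called higher with the block (adjusted p = 0.0279). At these counts the fitted fold change depends on the method. It was 2.94 in DESeq2 (adjusted p = 0.0495) and 0.96 in limma (adjusted p = 0.102). At 24 h Trp63 had 9 reads in the fx/fx library and 1 in that labelled ko/ko. With 10 counts required in all libraries, or over 8 libraries, Trp63 was not tested. Npm1, the nucleolar protein that binds p19Arf, had a log2 fold change of 0.20 (adjusted p = 0.892).

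Downstream of the Ink4 proteins, 0 of 17 RB pathway genes were called at the adjusted limit (2.22% of genes), and 1 was lower and 3 were higher with the block (11.4% and 11.3% of genes). Cdk4, the kinase that p16Ink4a and p15Ink4b inhibit, was among the higher ones with the block, at 592 ± 68.6 CPM in the fx/fx and 771 ± 99.98 CPM in the ko/ko cells (0.37, adjusted p = 0.0476), and Cdk2 had 135 ± 10.99 and 159 ± 25.6 CPM (adjusted p = 0.196 with the block). Of 5 other CDK inhibitors, Cdkn1c, which encodes p57, was past the study's limit. It had 10.9, 7.44 and 2.03 CPM in the fx/fx and 54.5, 24.9 and 5.70 CPM in the ko/ko cells at 6, 48 and 72 h, so that it was higher at each time while the groups overlapped (2.08, adjusted p = 0.344, and 1.89 with an adjusted p of 0.000961 with the block). Without the ko/ko library of 6 h its log2 fold change was 1.17. It was the only one of the 5 called with the block (11.3% of genes higher). Cdkn1b and Cdkn2c had log2 fold changes of 0.08 and 0.10.

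Among 20 genes that regulate the Cdkn2a and Cdkn2b locus, 0 were called at the adjusted limit (2.22% of genes), and 4 were lower and 1 higher with the block (11.4% and 11.3% of genes). Id1, a repressor of p16Ink4a and a known target of BMP signalling, had 146, 168 and 211 CPM in the fx/fx and 15.8, 23.5 and 81.2 CPM in the ko/ko cells, with no overlap (-2.16, adjusted p = 0.141, and -2.47 with an adjusted p of 0.00199 with the block). Without the ko/ko library of 72 h, Id1 was called lower without a block too (-3.16, adjusted p = 0.00455). In the 24 h library labelled ko/ko, Id1 stood at 143 CPM. The repressor gene Tbx2 was low, at 2.92 ± 0.66 and 1.16 ± 0.29 CPM (-1.32, adjusted p = 0.139, and 0.00800 with the block). Myc had 131 ± 72.5 and 102 ± 83.9 CPM (adjusted p = 0.0358 with the block, log2 fold change -0.55). The genes next to the locus, Mtap and Dmrta1, had 95.6 to 235 and 0.372 to 0.722 CPM over the 8 libraries, and Wrap53, separated from Trp53 by 103 bases, had 19.6 to 27.1 CPM.

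Of 12 cell cycle genes that are repressed through p21, 0 were called without the block (2.22% of genes) and 1 was higher with it (11.3% of genes). Ccna2 and Cdk1, those with the highest RPKM, had 324 ± 124 and 265 ± 82.0 CPM in the fx/fx and 275 ± 122 and 337 ± 131 CPM in the ko/ko cells. Neither was called with the block (adjusted p = 0.128 and 0.0585). With the 24 h libraries included, that labelled ko/ko among them, the summed level of the odontoblast markers was 12.8 to 61.8 CPM in the fx/fx and 0.551 to 13.1 CPM in the ko/ko libraries. Its part in the differences between the genotypes was not tested.

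To compare the profiles of the members over the 8 libraries, the log2 CPM of each gene was centred on its mean over the 8 libraries, and the mean absolute difference was taken as a measure of likeness. Mdm2 and Zmat3 were the closest pair (0.12), followed by Mdm2 and Phlda3 (0.19) and by Cdkn2a and Cdkn2b (0.19). The arrest genes Cdkn1a and Ccng1 were 0.42 apart. Bbc3 was nearest to the Ink4 genes Cdkn2b (0.29) and Cdkn2a (0.31), as was Trp53 to Cdkn2b (0.31). Cdkn2a and Ccng1 were the farthest apart (0.89). Over the 10938 genes with at least 100 counts on average, those most like Trp53 were Uba1 (0.0185), Mettl22 (0.0248) and Mrps17 (0.0326), those most like Cdkn1a were Ltbp1 (0.129), Psrc1 (0.135) and Hmga2 (0.140), and those most like Cdkn2a were Cd97 (0.0744), Pard6a (0.0827) and Npdc1 (0.0831). The libraries share their depth and culture times between genes, and the likeness is a description.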

How the data were processed

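Total RNA libraries of immortalized mouse dental papilla cells were sequenced by the authors on an Illumina instrument, 1 library per genotype and culture time. The library labels describe single reads of 50 bases and 6 h, whereas the study's methods name paired reads and the deposited design text gives 8 h. Per the submitters' processing notes, reads were handled with CASAVA 1.8.2, aligned to mm9 with TopHat2 2.0.8b and counted with HTSeq. The authors deposited these counts as whole numbers without normalization. The annotation and the strand setting of the counting are not given in the sources used here. The 5 summary counters per library, 52.0 to 59.0% of all entries, were left out, and reads with several positions were 41.3 to 49.6%.

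The members and the gene lists were chosen with earlier results of these data known. Groups came from the labels. The study's text gives its limit as a p-value and a caption names a Q value, and the unadjusted p was used for it here. In R 4.3.3, edgeR 4.0.16 with TMM, its filter on low counts (10 counts, 15 in total) and the quasi-likelihood test was fitted on the whole gene table, with Benjamini-Hochberg adjustment over all genes. The genotype test used 6 libraries and the tests of time 7, without the 24 h library labelled ko/ko. RPKM used the exonic length in GENCODE release M1, to which 95.7% of symbols matched, and the TMM-scaled library sizes. Deviations from the genotype mean correlated between the libraries of a culture time, which the labels give, with coefficients of 0.735, 0.572 and 0.866 at 6, 48 and 72 h, so the culture times pair these 6 libraries. Over all 4 times the coefficients were 0.618, -0.281, 0.343 and 0.854 at 6, 24, 48 and 72 h, and those of 24 and 48 h were below the highest coefficient between different times (0.469). Alternatives were a block for culture time, all 8 libraries, 7 libraries, RLE and upper quartile scaling, DESeq2 1.42.0, limma 3.58.1 (log2 CPM plus 0.5), a filter switched off or set to 10 counts in all libraries, time in hours, and leaving out each library. Leaving out both libraries of a time under the block was added after seeing the data.

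Besides the members and Bmp2, the genes named are, of each list, up to 6 called by either limit and the 2 of highest RPKM, the neighbours of Trp53 and of the Ink4 locus, and the 3 most like Trp53, Cdkn1a and Cdkn2a. Floors of 3 counts cover counting error only. The fits were tested on simulated counts. The lncRNA tables were used only for lncRNAs near a member. Sequences and figures were made with Python 3.11.15, pysam 0.24.0 and matplotlib 3.10.9.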

Additional observations from a re-analysis of the deposited data

Results flagged for a closer look

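Ccng1 in the 4 fx/fx libraries had 1 library far from the others. Its 6 h library had 115 CPM, against 248, 260 and 281 CPM at 48, 72 and 24 h, and the gap to the nearest library was 0.857 of the range of the group on the log2 scale, above Dixon's critical value for 4 libraries. The 10 members in both genotypes made 20 such groups, of which this was the only one past its critical value. Among independent groups of replicates chance passes about 1 in 20, but these libraries are successive culture times and the members share them. Ccng1 was lowest at 6 h in the ko/ko cells as well.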

How the results depend on the processing

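Values are log2 fold changes of ko/ko against fx/fx cells or counts of genes called. Of the alternative values of single members between genotypes, 162 kept their sign and their side of the adjusted limit, 10 passed it newly with the same sign and 18 changed sign. No main value was past the limit, and of those that changed sign 1, Ccng1 under the block without 72 h, passed it (adjusted p = 0.0492). For the trend 115 stayed, 9 passed newly and 6 changed sign, and for the interaction 48 stayed and 2 changed sign. The causes of these shifts were not tested. At this depth every member had at least 227 reads in each library. With 1 line per genotype, and 1 library per genotype and time, Bmp2 status cannot be told apart from other differences between the lines or cultures. With the replicate block for culture time over 6 libraries, edgeR called 2981 genes in place of 291 and 3 members in place of 0, and 4 members had an unadjusted p under 0.05. The lists then had 10 calls among other p53 targets, 4 each among p53 regulators and RB pathway genes, 5 among regulators of the Ink4 locus, and 1 each among the other CDK inhibitors and the cell cycle genes. Over 8 libraries the block gave 44 genes, 5 members at the unadjusted limit and 0 calls in every list. In that fit the adjusted p was 0.122 for Ep300, 0.126 for Cdk4, 0.0691 for Cdkn1c, 0.127 for Id1, 0.320 for Tbx2 and 0.117 for Myc. Without a block, 8 libraries gave 0 genes, 1 member at the unadjusted limit and 0 other p53 targets, and 7 libraries gave 483 genes, 2 members at the unadjusted limit and 1 past the limit of the study. DESeq2 called 873 genes, 4 other p53 targets, 1 p53 regulator and 2 regulators of the Ink4 locus. With at least 10 counts in all libraries 145 genes were called, and without a filter 1 member had an unadjusted p under 0.05 (12% of genes). In the fits added later, the replicate block called 1 member without 6 h and 1 without 48 h, with 3 members each at the unadjusted limit, and 6 members without 72 h, of which 6 were at the unadjusted limit and 2 past the limit of the study. Leaving out 1 library gave 9 to 383 genes, 0 members at the adjusted limit, 0 to 2 at the unadjusted limit (8.34 to 17.4% of genes) and 0 to 1 past the limit of the study (5.87 to 10% of genes), 0 to 2 other p53 targets and 0 to 1 regulators of the Ink4 locus, with 0 in the other lists. Ccng1, whose main value was 0.0016, changed sign to -0.26 over 8 and -0.12 over 7 libraries, to -0.22 and -0.47 with the replicate block over 6 and 8 libraries, to -0.21 with limma, to -0.013 without a filter and to -0.0051 with 10 counts in all libraries. It was -0.080 under the block without 48 h and -0.61 without 72 h, and -0.76 to 0.41 leaving out 1 library. Under the block, Cdkn2a was -0.052 without 6 h, Cdkn2b 0.090 without 48 h and Trp53 -0.00086 without 72 h. Leaving out 1 library gave a range over 0 for Cdkn2b (-0.26 to 0.23), Cdkn2a (-0.098 to 0.46), Trp53 (-0.062 to 0.15), Bax (-0.032 to 0.14), Cdkn1b (-0.18 to 0.40), Cdkn2c (-0.071 to 0.27), Myc (-1.26 to 0.070), Ccna2 (-0.66 to 0.12), Npm1 (-0.33 to 0.62) and Cdk1 (-0.025 to 0.63). The trend was called for 1 gene over 8 libraries, 16 without a filter and 1693 with DESeq2, where 5 members were called. Leaving out 1 library gave 0 to 1069 genes, 0 to 4 members and 1 to 6 members at the unadjusted limit (6.96 to 36.7% of genes), the highest counts of called genes and members without the ko/ko library of 48 h. The trend estimates per doubling then ranged from -0.13 to 0.038 for Cdkn2b, -0.16 to 0.034 for Bbc3 and -0.0037 to 0.051 for Trp53. The interaction of Trp53 was 0.0058 over 8 libraries and 0.0074 with time in hours.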

Other observations

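Of the lncRNAs in the deposited lncRNA tables, 1 lies within 5 kb of a member. Gm12606 (chr4:88881603-88919307 in mm9, minus strand) lies downstream of Cdkn2a on the same strand. It had 3, 2, 7 and 3 reads in the fx/fx libraries of 6, 24, 48 and 72 h. In the ko/ko cells it had 0, 2 and 2 reads at 6, 48 and 72 h, and 1 in the 24 h library labelled ko/ko. The genotypes were not compared by a test at these counts.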
